A study of Mus musculus with 5 samples.

Results

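The committed gonadotrope lines αT3–1 and LβT2 were set against the lines αT1–1 and TαT1, and the genes that separated the 2 pairs in the deposited RNA-seq table were described. For each gene, the lower of the levels in αT3–1 and LβT2 was compared with the higher of the levels in αT1–1 and TαT1, and the reverse was done for genes that were lower in αT3–1 and LβT2. Levels are RPKM (reads per kilobase of a gene, set relative to the depth of the library), and the separation is the difference of these nearest levels on the log2(RPKM + 1) scale, which understates the change of low genes. Of 21437 genes in the table, 12884 reached 1 RPKM in at least 1 of the 4 lines and were counted. Of these, 151 were separated by a difference of 2 or more (4-fold), 83 of them higher and 68 lower in αT3–1 and LβT2. Calls at 4-fold and 2-fold below mean differences of 2 and 1 on this scale. A fold given with an interval is the plain ratio of the nearest RPKM levels. A gene can therefore have a ratio above 4 or 2 without being called at 4-fold or 2-fold.

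All 4 lines are mouse pituitary tumor lines from CB6F1/J mice that carry the SV40 T antigen as a transgene, and all were cultured without a treatment. The labels call αT3–1 an intermediate gonadotrope line of embryonic stage and LβT2 a mature gonadotrope line of mature stage. On the other side, αT1–1 is called an immature gonadotrope line of embryonic stage and TαT1 a thyrotrope line of mature stage, so that each pair holds 1 line of each stage. The fifth line of the series, NIH3T3, is an embryonic fibroblast line from Swiss mice and was used only as an outside level. Each line is a single tumor line in culture and has 1 column of values, the lines of a pair are different lines and not replicates, and no difference below has a replicate check, a test or an error between samples. The state of a line and its origin from a tumor of its own cannot be told apart.

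Gonadotropes are the pituitary cells that make the gonadotropins, luteinizing hormone (LH) and the follicle-stimulating hormone FSH. Both hormones pair the common α subunit, encoded by Cga, with a β subunit of their own, and thyroid-stimulating hormone (TSH) of the thyrotropes uses the same α subunit. In development, Cga comes on before the lineages part. Steroidogenic factor 1 (SF1, encoded by Nr5a1) and the receptor for gonadotropin-releasing hormone (GnRH, Gnrhr) then mark cells that are set on the gonadotrope path, whereas PIT1 (Pou1f1) marks the path that leads to thyrotropes, lactotropes and somatotropes.

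The values under 1 RPKM of each column were whole multiples of a step, which gave 20.7 M reads (M, 1000000) behind the values of αT3–1, 18.7 M for LβT2, 20.2 M for αT1–1 and 18.8 M for TαT1. Whole reads were recovered for 15418 of 17489 genes above 0. The intervals below are 95% intervals from these reads and cover counting error only. Where a line had 0 reads of a gene, a floor of 3 reads took its place. The lines expressed 11438 genes in αT3–1 and 11028 in LβT2, against 10750 in αT1–1 and 10821 in TαT1, at 1 RPKM or more.

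The lines were first described by markers of pituitary cell types. Of 6 gonadotrope markers, 4 reached 1 RPKM in αT3–1 and 5 in LβT2, against 1 in αT1–1 and 1 in TαT1. That single marker was Cga, and the FSH β subunit gene Fshb was at 0 in all 4 lines. The 6 markers include Gnrhr, Nr5a1 and Nr0b1, and the same values of these genes are called separated below. The study had already reported Gnrhr and SF1 from this RNA-seq, so the count is a description and no independent check. Of 4 thyrotrope markers, none reached 1 RPKM in αT3–1 or LβT2, against 2 in αT1–1 and 4 in TαT1. The lactotrope hormone Prl stood at 0 in αT3–1 and 0.06 RPKM in LβT2, against 0 in αT1–1 and 108 RPKM in TαT1. The 4 lactotrope and somatotrope markers summed to 29.9 RPKM in αT3–1, 69.4 in LβT2, 15.8 in αT1–1 and 139 in TαT1. This sum was higher in both committed lines than in αT1–1, where Prl, Gh and Ghrhr were all at 0 and only the dopamine receptor gene Drd2 was left. Only 1 of these 4 markers reached 1 RPKM in each of αT3–1, LβT2 and αT1–1, against 3 in TαT1. The sums are thus no measure of a lactotrope or somatotrope program. Of 3 corticotrope markers, none reached 1 RPKM in αT3–1 and 1 in LβT2, against 1 in αT1–1 and 2 in TαT1. Markers of fibroblasts summed to 2.33 RPKM in αT3–1 and 0.22 in LβT2, against 0.13 in αT1–1 and 0.18 in TαT1, and those of red blood cells were at 0 in all 4. The 3 endothelial markers summed to 16.5 RPKM in αT3–1 and 65.8 in LβT2, against 65.0 in αT1–1 and 21.9 in TαT1, and their part in the results was not tested. In RNA of a whole culture, fewer cells of a type and less RNA per cell cannot be told apart.

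The 83 genes that were 4-fold higher are 0.644% of the counted genes, and the 68 that were 4-fold lower are 0.528%. At a difference of 1 (2-fold), 456 genes were higher (3.54%) and 289 were lower (2.24%). The order of these 2 counts turned under quantile normalization, with 329 higher (2.56%) and 357 lower (2.78%), and scaling to Actb gave 801 (6.18%) and 169 (1.3%). The counts of the gene lists are given as deposited, to be read against 3.54% and 2.24%. Where a count under another scaling is added, it is to be read against the shares of all genes under that scaling. Of the 87 list members past 2-fold, 71 stayed past it under median-of-ratios scaling, quantile normalization and scaling to Actb, and 13 of the other 16 were lost with scaling to Actb. Without a limit on size, the levels did not overlap for 2717 genes that were higher (21.1%) and 2514 that were lower (19.5%) in αT3–1 and LβT2. More genes were lower than higher by that count under median-of-ratios scaling (2560 higher and 2694 lower), under quantile normalization (2309 and 2898) and among genes at 5 RPKM or more (1926 and 2131). At the strictest reading, 17 genes (0.132%) stood at 10 RPKM or more in both αT3–1 and LβT2 and under 1 RPKM in both αT1–1 and TαT1, and 18 genes (0.14%) had the opposite pattern. The median difference of the pair means over all counted genes was 0.06 on the log2(RPKM + 1) scale.

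**Figure D1:**
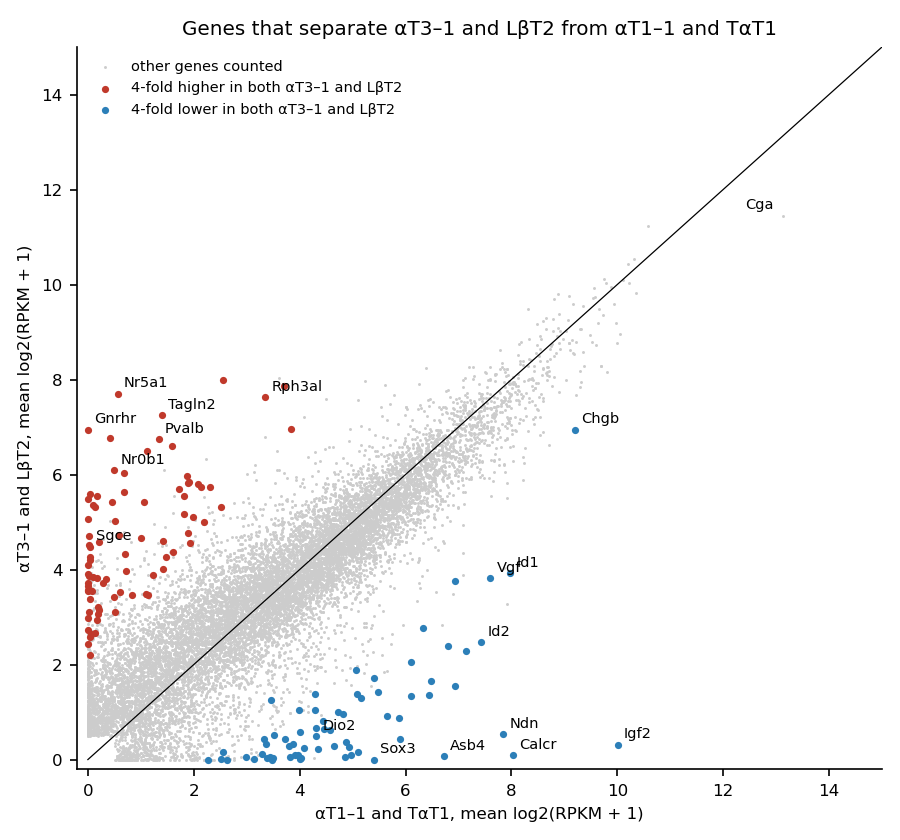
Mean log2(RPKM + 1) of αT3–1 and LβT2 (vertical axis) against that of αT1–1 and TαT1 (horizontal axis) for the 12884 counted genes, 1 point per gene. Red points are the 83 genes that were 4-fold higher and blue points the 68 that were 4-fold lower in both αT3–1 and LβT2. Nr5a1 and Gnrhr lie at the upper left and Igf2, Calcr and Ndn at the lower right, while Cga is the gene with the highest level and is in neither set.

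Across all counted genes, αT3–1 and LβT2 were the least alike of the 4 lines. Over 12884 genes, which are not independent replicates, Pearson's r was 0.739 between αT3–1 and LβT2 and 0.919 between αT1–1 and TαT1, and the r of αT3–1 was higher with αT1–1 (0.836) and with TαT1 (0.803) than with LβT2. A level at least 4-fold apart was found for 1624 genes (12.6%) between αT3–1 and LβT2, in either direction, against 414 (3.21%) between αT1–1 and TαT1. Among the 83 higher genes, the median distance between LβT2 and αT3–1 was 0.68 on the log2(RPKM + 1) scale, and 54 genes were higher in LβT2. Of the 83, 16 were over 4-fold higher in LβT2 than in αT3–1 and 2 were over 4-fold lower. Among the 68 lower genes, αT3–1 and LβT2 lay closer, with a median distance of 0.40, whereas the levels of αT1–1 and TαT1 were a median of 0.80 apart.

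The largest separation upward was that of Nr5a1, the nuclear receptor SF1 that directs gonadotrope and gonadal genes. Nr5a1 stood at 162 RPKM in αT3–1 and 265 in LβT2, against 0.69 in αT1–1 and 0.29 in TαT1. Both committed lines were far above the others, and the nearest levels, those of αT3–1 and αT1–1, were 236-fold apart (95% interval 174 to 329). Gnrhr, the receptor through which the hypothalamus drives LH and FSH, came next. It had 206 RPKM in αT3–1 and 72.3 in LβT2, and no read in αT1–1 or TαT1. LβT2 was at least 548-fold higher than TαT1, at the floor of 3 reads. Nr0b1 encodes DAX1, a nuclear receptor without a DNA-binding domain that binds SF1 and represses it. Its level was 13.5 RPKM in αT3–1 and 318 in LβT2, against 0.19 in αT1–1 and 0.68 in TαT1. The nearest levels of Nr0b1 were 19.8-fold apart (13.1 to 31.6), and LβT2 stood far above αT3–1. In contrast, Pitx1, a homeodomain factor of the early pituitary, overlapped, with 100.3 RPKM in αT3–1 and 337 in LβT2 against 260 in αT1–1 and 398 in TαT1.

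The windows around the start of Gnrhr and Nr0b1 are shown because these genes were on in both committed lines and at or near 0 in the others. Each runs from 250 bases before to 50 bases after the start (RefSeq, GRCm38.p6), 5′ to 3′ on the strand of the gene, and capitals mark a match to 1 of 9 motifs searched on both strands.
Gnrhr, chr5:86197852-86198151, minus strand: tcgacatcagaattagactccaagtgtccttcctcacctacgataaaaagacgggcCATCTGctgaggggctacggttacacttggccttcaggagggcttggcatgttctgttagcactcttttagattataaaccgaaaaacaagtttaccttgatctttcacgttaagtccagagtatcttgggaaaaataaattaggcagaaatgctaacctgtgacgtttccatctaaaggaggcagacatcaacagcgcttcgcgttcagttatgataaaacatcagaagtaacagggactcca
Nr0b1, chrX:86191525-86191824, plus strand: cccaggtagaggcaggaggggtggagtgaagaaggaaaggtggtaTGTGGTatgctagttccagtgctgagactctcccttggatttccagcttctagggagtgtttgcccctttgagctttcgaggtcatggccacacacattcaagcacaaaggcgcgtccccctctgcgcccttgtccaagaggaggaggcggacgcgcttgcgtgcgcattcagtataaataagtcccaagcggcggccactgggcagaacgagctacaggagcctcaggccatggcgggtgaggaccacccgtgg

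In the Gnrhr window the capitals are a NeuroD-type E-box (CAGATG, read here on the opposite strand) that begins 194 bases before the start. In the Nr0b1 window they are a RUNX site (TGTGGT) that begins 205 bases before the start. Over all windows of this length, 17.2% hold the E-box and 16.8% the RUNX site, so a match is common and is a description only.

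Of 12 counted gonadotrope transcription factors, 3 were 4-fold higher, among them Nr5a1 and Nr0b1, 1 was over 2-fold lower and 8 were in neither set at 2-fold, beside 3.54% higher and 2.24% lower over all counted genes. The lower factor was Lhx3, a LIM homeodomain factor that acts on Cga and Gnrhr. Lhx3 had 24.9 RPKM in αT3–1 and 28.3 in LβT2, against 100.1 in αT1–1 and 67.3 in TαT1 (2.38-fold lower, 2.22 to 2.55), and so was lower in both lines that had Gnrhr. With scaling to Actb it stayed lower but was no longer 2-fold apart. Foxl2, a forkhead factor of gonadotropes, overlapped at 86.8 RPKM in αT3–1 and 46.0 in LβT2 against 47.8 in αT1–1 and 17.6 in TαT1. Gata2 overlapped as well, with 1.42 RPKM in αT3–1 and 78.8 in LβT2 against 25.9 in αT1–1 and 51.7 in TαT1. Likewise, Isl1 had 20.7 and 67.6 RPKM in αT3–1 and LβT2, against 18.5 and 21.1 in αT1–1 and TαT1. Runx1 was at 0 in all 4 lines and was not among the counted genes. The hormone subunits did not separate the pairs either. Cga had 603 RPKM in αT3–1 and 12968 in LβT2, against 9081 in αT1–1 and 8802 in TαT1, so the level of αT3–1 was the lowest of the 4. Lhb, the β subunit of LH, was at 23.3 RPKM in LβT2 only, and αT3–1 (0.28) lay with αT1–1 (0.29) and TαT1 (0.21).

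**Figure D2:**
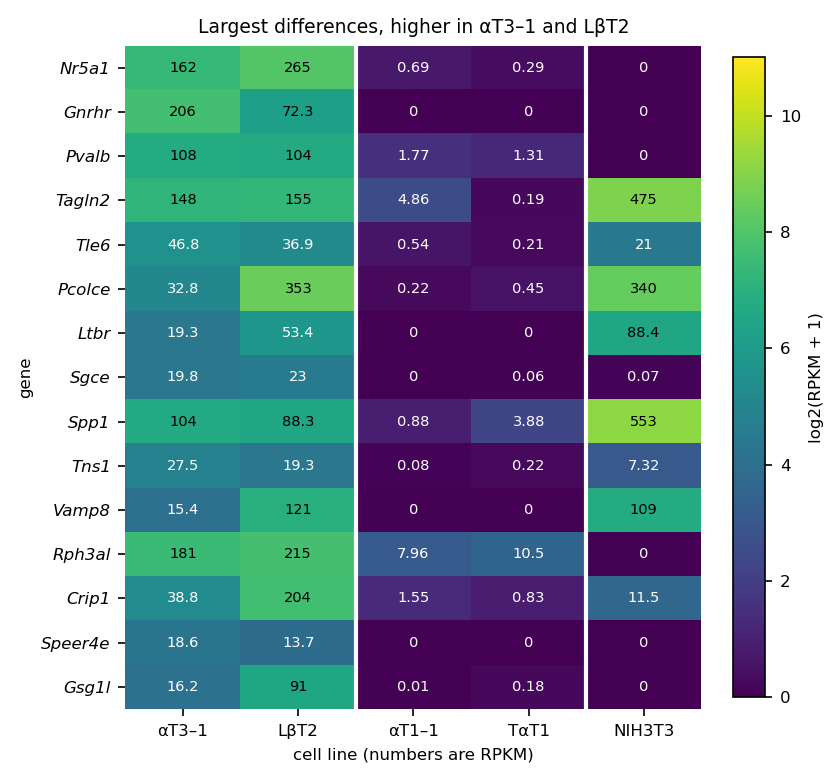
The 15 named genes with the largest separation upward among those at 10 RPKM or more in both αT3–1 and LβT2, in order of the separation, with the RPKM of each line as a number and log2(RPKM + 1) as color. The columns αT3–1 and LβT2 are above every value of αT1–1 and TαT1, and in NIH3T3 8 of the 15 genes stand at 7.32 RPKM or more and the other 7 at 0.07 RPKM or less.

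The other genes at the top of the higher set come from many functions. Pvalb, the calcium-binding protein parvalbumin, had 108 RPKM in αT3–1 and 104 in LβT2, against 1.77 in αT1–1 and 1.31 in TαT1 (58.7-fold, 35.9 to 103). Tagln2, the actin-binding protein transgelin 2, stood at 148 and 155 RPKM in αT3–1 and LβT2, against 4.86 and 0.19 in αT1–1 and TαT1. Tle6 belongs to the family of Groucho co-repressors, and its level was 46.8 RPKM in αT3–1 and 36.9 in LβT2, against 0.54 in αT1–1 and 0.21 in TαT1 (68.5-fold, 45.0 to 110). For these 3 genes the committed lines lay close to each other. Pcolce, an enhancer of procollagen processing, was uneven inside the pair, with 32.8 RPKM in αT3–1 and 353 in LβT2, against 0.22 in αT1–1 and 0.45 in TαT1. Spp1, the secreted protein osteopontin, had 104 RPKM in αT3–1 and 88.3 in LβT2, against 0.88 in αT1–1 and 3.88 in TαT1. Tns1, which links integrins to actin, stood at 27.5 and 19.3 RPKM against 0.08 and 0.22. Ltbr, the lymphotoxin β receptor, had 19.3 RPKM in αT3–1 and 53.4 in LβT2 and was at 0 in αT1–1 and TαT1. Crip1, a small LIM protein, and Gsg1l, an auxiliary subunit of glutamate receptors, stood at 38.8 and 204 RPKM and at 16.2 and 91.0 RPKM in αT3–1 and LβT2, and at 1.55 RPKM or less in αT1–1 and TαT1. Speer4e had 18.6 and 13.7 RPKM in αT3–1 and LβT2 and 0 in both others. It is 1 of 4 Speer genes in the higher set that lie in a cluster on chromosome 5, and 64.4% of its words of 36 bases also occur in transcripts of other genes, so reads cannot be assigned to these genes with certainty.

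Part of the higher set was also expressed in NIH3T3. Of the 83 genes, 37 (44.6%) were at 1 RPKM or more in NIH3T3, against 18 of the 68 lower genes (26.5%) and 9085 of all counted genes (70.5%). For 13 of the 83, NIH3T3 was above all 4 pituitary lines. Tagln2 (475 RPKM), Spp1 (553) and Ltbr (88.4) were among them in NIH3T3. Nr5a1, Gnrhr, Nr0b1 and Pvalb were at 0 in NIH3T3.

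The largest separation of all was downward. Igf2, the fetal growth factor insulin-like growth factor 2, stood at 0.05 RPKM in αT3–1 and 0.48 in LβT2, against 1518 in αT1–1 and 694 in TαT1, a separation of -8.88 on the log2(RPKM + 1) scale. No reads were recovered for Igf2, and 62.9% of its words of 36 bases occur in other transcripts, among them its overlapping antisense gene Igf2as, which the unstranded kit cannot tell apart. Calcr, the calcitonin receptor, was at 0 in αT3–1 and 0.14 RPKM in LβT2, against 227 in αT1–1 and 295 in TαT1. Calcr was 1636-fold lower in LβT2 than in αT1–1 (701 to 5038). Ndn, which encodes the growth suppressor necdin, had 0.26 RPKM in αT3–1 and 0.68 in LβT2, against 212 in αT1–1 and 247 in TαT1 (311-fold lower, 203 to 503). Asb4, a substrate adaptor of ubiquitin ligases, stood at 0.04 and 0.05 RPKM in αT3–1 and LβT2, against 58.9 and 184 in αT1–1 and TαT1. H19, a non-coding RNA next to Igf2, was at 0 in αT3–1 and 0.13 RPKM in LβT2, against 22.9 in αT1–1 and 40.3 in TαT1. Igf2, Calcr, Ndn, Asb4 and H19 are known as imprinted genes in the mouse, expressed from 1 parental copy in at least some tissues. They were 5 of the 6 genes with the largest separation downward, and the other was Sox3.

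**Figure D3:**
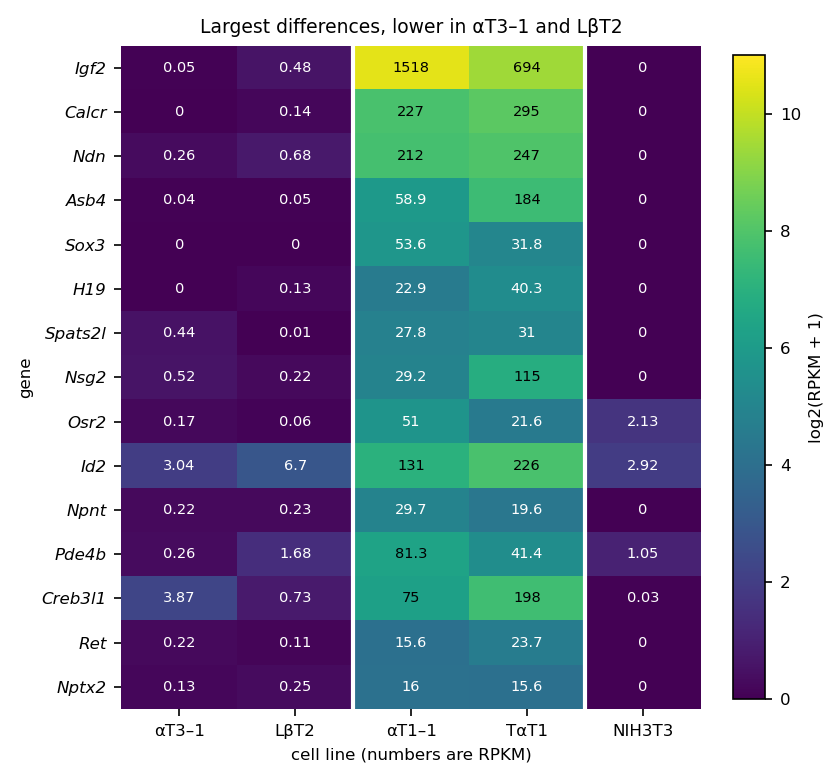
The 15 named genes with the largest separation downward among those at 10 RPKM or more in both αT1–1 and TαT1, in order of the separation, with the RPKM of each line as a number and log2(RPKM + 1) as color. The columns αT3–1 and LβT2 hold no value above 6.70 RPKM, while αT1–1 and TαT1 reach 1518 and 694 RPKM at Igf2.

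Of 37 counted imprinted genes, 6 were over 2-fold lower and 2 over 2-fold higher, against 2.24% and 3.54% of all counted genes. At 4-fold, 5 were lower and 1 was higher, and the median difference of the list was -0.84 on the log2(RPKM + 1) scale, beside 0.06 over all counted genes. The sixth lower gene was Mkrn3, with 0.19 and 0.11 RPKM in αT3–1 and LβT2 against 2.21 and 3.27 in αT1–1 and TαT1. The higher genes were Sgce, which encodes ε-sarcoglycan, and Ube3a, a ubiquitin ligase. Sgce had 19.8 RPKM in αT3–1 and 23.0 in LβT2, against 0 in αT1–1 and 0.06 in TαT1, and Ube3a had 11.4 and 9.79 against 2.38 and 3.11. The other 29 members of the list were in neither set at 2-fold.

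Calcr, Sgce and Asb4 lie in this order on chromosome 6, with 3 other counted genes in each gap, and Sgce went the opposite way to Calcr and Asb4. On GRCm38.p6, Sgce lies 909637 bp from Calcr and 636182 bp from Asb4. From Calcr to Asb4 (chr6:3685678-5433022), 9 genes were counted. Casd1, which lies just before Sgce, had 9.36 RPKM in αT3–1 and 5.36 in LβT2, against 9.07 in αT1–1 and 5.63 in TαT1, and Bet1 overlapped in the same way. Peg10, a retrotransposon-derived gene that begins next to Sgce, had 4.18 RPKM in αT3–1 and 0.57 in LβT2, against 0 in αT1–1 and 0.10 in TαT1, a separation of 0.51. Pon2, on the other side of Sgce near Asb4, was lower, with 0.08 RPKM in αT3–1 and 0 in LβT2, against 3.61 in αT1–1 and 2.95 in TαT1. In the mouse, Sgce and Peg10 are known to be expressed from the paternal copy and Asb4 from the maternal copy. On chromosome 7, Igf2 is known to be paternal and H19 maternal, and both were lower.

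**Figure D4:**
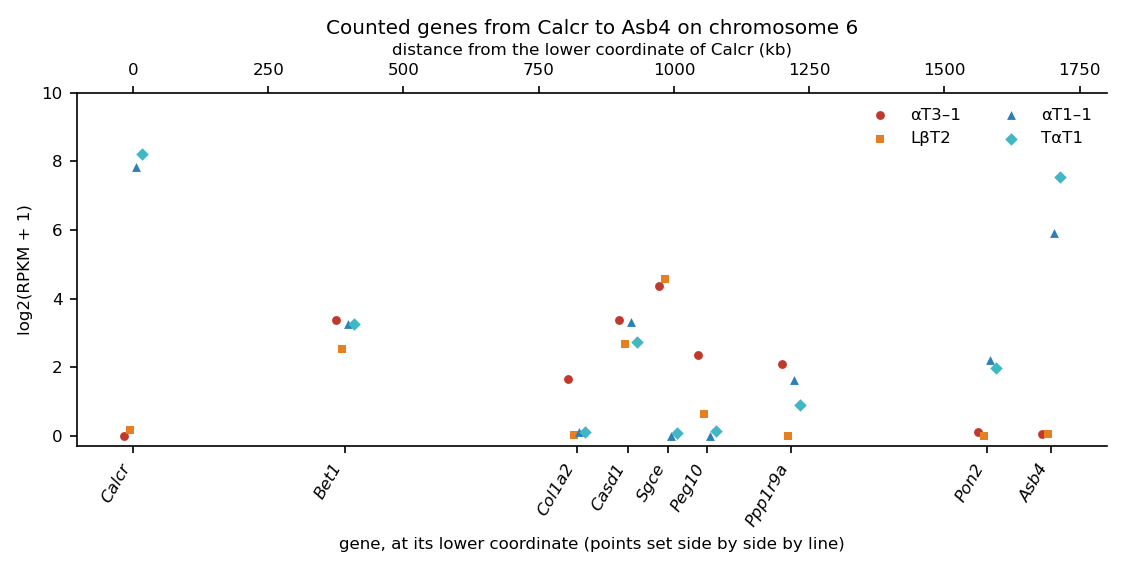
log2(RPKM + 1) of the 9 counted genes from Calcr to Asb4 on chromosome 6 in each line, drawn at the distance of each gene's lower coordinate from that of Calcr in kb. At Calcr, Pon2 and Asb4 the points of αT3–1 and LβT2 are below those of αT1–1 and TαT1, at Sgce and Peg10 they are above, and at the other 4 genes they overlap.

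The fetal and progenitor factor Sox3, an HMG box factor of the early pituitary and hypothalamus, was at 0 in αT3–1 and LβT2, against 53.6 RPKM in αT1–1 and 31.8 in TαT1. Against TαT1, its level in LβT2 was at least 408-fold lower. Of 13 counted progenitor and patterning factors, 3 were over 2-fold lower and 1 higher, beside 2.24% lower and 3.54% higher over all counted genes. With scaling to Actb, 2 were lower and 2 higher, beside 1.3% and 6.18% under that scaling. Sox9 was lower, with 0.07 and 0.32 RPKM in αT3–1 and LβT2 against 7.95 and 2.43 in αT1–1 and TαT1. Sox2, which also marks pituitary progenitors, was at 0 in all 4 lines. Of 11 counted genes of the thyrotrope and PIT1 lineage, 3 were over 2-fold lower and none was higher, and the median difference was -1.44, beside 2.24%, 3.54% and 0.06 over all counted genes. Rxrg, a retinoid X receptor of thyrotropes, was at 0 in αT3–1 and 0.09 RPKM in LβT2, against 12.7 in αT1–1 and 60.3 in TαT1. Dio2, the deiodinase that makes active thyroid hormone, had 0.92 RPKM in αT3–1 and 0.03 in LβT2, against 17.1 in αT1–1 and 20.9 in TαT1 (18.6-fold lower, 15.3 to 22.7). For both genes αT1–1 lay with the thyrotrope line. Pou1f1 had 0 RPKM in αT3–1 and 0.06 in LβT2, against 3.21 in αT1–1 and 88.0 in TαT1. Its nearest levels were 52.5-fold apart (9.06 to 2112), on 1 read in LβT2. The separation of -1.99 on the log2(RPKM + 1) scale fell just short of the call at a difference of 2. Tshb, the β subunit of TSH, had 0.07 RPKM in αT3–1 and 0.17 in LβT2, against 0.38 in αT1–1 and 58.5 in TαT1. The nearest levels of Tshb, in αT1–1 and LβT2, were 2.30-fold apart on 5 and 2 reads (0.38 to 24.2). Its separation on the log2(RPKM + 1) scale was -0.25.

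In the lower set, the windows of Ndn, Id2 and Rxrg held no match to any of the 9 motifs. The windows of Dio2 and Asb4 were picked to be shown, since each carries a motif of a pituitary factor and Dio2 carries 2 matches. The origin, strand and extent are as above.
Dio2, chr12:90738989-90739288, minus strand: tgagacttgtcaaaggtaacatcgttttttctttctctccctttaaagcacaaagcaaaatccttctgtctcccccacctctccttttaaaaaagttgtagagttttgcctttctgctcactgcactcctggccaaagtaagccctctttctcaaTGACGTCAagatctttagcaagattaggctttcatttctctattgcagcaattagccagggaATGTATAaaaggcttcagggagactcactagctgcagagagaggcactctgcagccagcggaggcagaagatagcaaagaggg
Asb4, chr6:5383136-5383435, plus strand: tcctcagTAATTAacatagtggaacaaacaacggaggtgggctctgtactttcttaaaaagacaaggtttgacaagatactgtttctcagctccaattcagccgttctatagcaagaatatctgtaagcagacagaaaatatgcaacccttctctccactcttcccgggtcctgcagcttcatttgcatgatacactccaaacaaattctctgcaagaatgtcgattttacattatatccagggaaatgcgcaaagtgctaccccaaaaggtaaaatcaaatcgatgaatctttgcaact

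The first capitals of Dio2 are a cAMP response element (TGACGTCA) 95 bases before the start, and the second are a PIT1 site (TATNCAT, read on the opposite strand) 33 bases before it, whose letters run into a TATA-type stretch. The capitals of Asb4 are a LIM homeodomain site (TAATTA) 243 bases before the start. Of all windows, 1.79% hold the response element, 8.84% the PIT1 site and 5.29% the homeodomain site, and of the windows of counted genes 3.40%, 3.47% and 2.28%. They occurred in 2, 2 and 0 windows of higher genes and in 2, 3 and 1 of lower genes. Among the 9 motifs, the SF1 site AAGGTCA occurred in 4 of 63 windows of higher genes (6.35%) and 1 of 45 of lower genes (2.22%), beside 304 of 10116 windows of counted genes (3.01%). The 4 higher genes were Akr1b10, Fam13a, Klk1 and Stat6, and neither Nr0b1 nor Gnrhr had these letters in the window. The other motifs searched were TAATCC for PITX factors, AGATAA for GATA factors and TGANTCA for AP-1, which occurred in 4, 3 and 3 windows of higher genes and in 2, 2 and 0 of lower genes, beside 5.18%, 5.81% and 4.32% of counted genes. The E-box was in 8 windows of higher genes (12.7%) and 5 of lower genes (11.1%), beside 11.2% of counted genes. The RUNX site was in 8 (12.7%) and 4 (8.89%), beside 11.8%, and no match overlapped another in the windows printed. A ratio of observed to expected CpG of 0.6 or more was found for 47.6% of the windows of higher genes and 51.1% of those of lower genes, against 74.4% for counted genes. The share was thus lower in both sets than over the counted genes.

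The 4 Id genes encode helix-loop-helix proteins that bind other factors of this family and keep them off DNA, and they are known targets of bone morphogenetic protein (BMP) signals. All 4 were in the set 4-fold lower in αT3–1 and LβT2, which held 0.528% of all counted genes. Id2 had 3.04 RPKM in αT3–1 and 6.70 in LβT2, against 131 in αT1–1 and 226 in TαT1 (19.5-fold lower, 16.6 to 23.0). Id1 stood at 17.5 and 11.5 RPKM in αT3–1 and LβT2, against 281 and 223 in αT1–1 and TαT1 (12.8-fold lower, 11.4 to 14.3). The levels of Id3 were 16.2 and 9.62 RPKM in αT3–1 and LβT2 against 135 and 109 in αT1–1 and TαT1, and those of Id4 were 10.6 and 2.97 against 83.6 and 74.8. That the pairs did not overlap at any Id gene follows from these calls. Unlike Ndn or Calcr, the Id genes were still expressed in αT3–1 and LβT2.

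Of 33 counted genes of the TGFβ, activin and BMP pathway, 7 were over 2-fold lower and 1 was higher, beside 2.24% and 3.54% of all counted genes. At a difference of 2 on the log2(RPKM + 1) scale, 6 were lower and none was higher. With scaling to Actb, 7 were lower and 6 higher at 2-fold, beside 1.3% and 6.18% of all genes under that scaling. The median difference as deposited, 0.06, lay at that of all counted genes. Beside the Id genes, they were Nog, Tgfb2 and Smad9. Nog, the secreted BMP antagonist noggin, had 1.89 RPKM in αT3–1 and 0.22 in LβT2, against 16.8 in αT1–1 and 140 in TαT1. Tgfb2, a TGFβ ligand, had 0.06 and 0.01 RPKM in αT3–1 and LβT2 against 9.31 and 5.17 in αT1–1 and TαT1. Smad9, a BMP-regulated SMAD, had 1.93 and 0.22 against 7.60 and 13.6. The higher member was Inhbb, the βB subunit of activin B and inhibin B, which stood at 6.31 RPKM in αT3–1 and 105 in LβT2, against 0.08 in αT1–1 and 1.37 in TαT1 (4.60-fold, 3.74 to 5.69). Inha, the α subunit of inhibin, had 7.80 and 98.7 RPKM against 1.86 and 3.81, and its nearest levels were 2.05-fold apart (1.62 to 2.60). For both inhibin subunits the level of LβT2 was far above that of αT3–1.

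Of 41 counted factors of the basic helix-loop-helix and related families, 8 were over 2-fold lower and 3 higher, beside 2.24% and 3.54% of all counted genes. With the Id genes, the lower factors included Myc, with 0.85 and 1.92 RPKM in αT3–1 and LβT2 against 8.34 and 27.2 in αT1–1 and TαT1. A pair of partner proteins of the circadian clock went opposite ways. Clock was higher, with 19 RPKM in αT3–1 and 12.1 in LβT2 against 1.98 in αT1–1 and 1.40 in TαT1 (6.13-fold, 5.42 to 6.95). Arntl, which encodes BMAL1, the protein CLOCK pairs with, had 7.19 RPKM in αT3–1 and 7.12 in LβT2 against 55.1 in αT1–1 and 31.2 in TαT1 (4.34-fold lower, 3.90 to 4.84).

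The Wnt list had 3 of 27 counted genes over 2-fold lower and none higher, beside 2.24% and 3.54% of all counted genes. Wnt4, a Wnt ligand of the pituitary and gonads, had 1.84 RPKM in αT3–1 and 0.49 in LβT2, against 18.1 in αT1–1 and 19.3 in TαT1 (9.81-fold lower, 7.13 to 13.8). Axin2, a common target and inhibitor of canonical Wnt signals, stood at 9.32 and 3.91 RPKM in αT3–1 and LβT2, against 43.1 and 37.6 in αT1–1 and TαT1 (4.03-fold lower, 3.73 to 4.36). The third gene was the receptor Fzd1. Of 15 counted Notch genes, Heyl and Dner were over 2-fold lower and none was higher. Both calls were lost with scaling to Actb (-0.78 and -0.80), and that of Dner under quantile normalization as well (-0.90). Of 25 counted forkhead factors, 4 were over 2-fold lower and 1 was higher, or 2 and 1 with scaling to Actb. Foxf2 had 0.04 and 0.02 RPKM in αT3–1 and LβT2 against 21.4 and 7.89 in αT1–1 and TαT1, and its neighbor on chromosome 13, Foxc1, had 0.38 and 0.15 against 13.0 and 6.49. The higher forkhead factor was Foxp2, with 7.39 and 4.16 RPKM in αT3–1 and LβT2 and no read in αT1–1 or TαT1.

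Genes of the secretory pathway moved in both directions. Of 31 counted genes, 4 were over 2-fold lower and 3 higher, and the median difference was -0.92, beside 2.24%, 3.54% and 0.06 over all counted genes. With scaling to Actb the same list had 4 lower and 5 higher genes, beside 1.3% and 6.18% of all genes under that scaling. The lower genes were Vgf, Chgb, Pcsk2 and Resp18, which encode a neuropeptide precursor, a granin of dense-core granules, a prohormone convertase and a protein of peptidergic granules. Chgb had 126 RPKM in αT3–1 and 118 in LβT2, against 656 in αT1–1 and 527 in TαT1 (4.18-fold lower, 4.07 to 4.29). Vgf had 9.60 and 17.6 RPKM in αT3–1 and LβT2, against 258 and 144 in αT1–1 and TαT1 (8.18-fold lower, 7.61 to 8.80). Pcsk2 and Resp18 were uneven inside the committed pair. Pcsk2 stood at 24.4 RPKM in αT3–1 and 0.08 in LβT2, against 119 in αT1–1 and 104 in TαT1, and Resp18 at 76.0 and 0.23 RPKM against 234 and 247. The related granin Chga overlapped, with 102 and 1280 RPKM in αT3–1 and LβT2 against 488 and 403 in αT1–1 and TαT1.

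The higher genes of the same list act in the release of granules. Cadps2, which primes dense-core vesicles, had 49.9 RPKM in αT3–1 and 51.8 in LβT2, against 9.66 in αT1–1 and 0.02 in TαT1. Cplx2, a complexin that binds SNARE complexes, had 100.5 and 45.4 RPKM in αT3–1 and LβT2, against 8.73 and 13.5 in αT1–1 and TαT1 (3.36-fold, 3.15 to 3.58). Rab27a, a small GTPase of granules, had 38.3 and 49.4 RPKM against 11.9 and 13.1 (2.92-fold, 2.68 to 3.17). Rph3al, which encodes the Rab effector Noc2 and is not in the list, stood at 181 RPKM in αT3–1 and 215 in LβT2, against 7.96 in αT1–1 and 10.5 in TαT1 (17.2-fold, 14.8 to 20.04). Vamp8, a SNARE of regulated exocytosis, is also outside the list. It had 15.4 and 121 RPKM in αT3–1 and LβT2 and no read in αT1–1 or TαT1. In the fibroblast line NIH3T3, Vamp8 stood at 109 RPKM and Rph3al at 0. The calcium sensor Syt7 had 18.8 and 62.6 RPKM in αT3–1 and LβT2, against 2.27 and 9.56 in αT1–1 and TαT1. It stayed just under 2-fold (1.96-fold, 1.84 to 2.10).

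**Figure D5:**
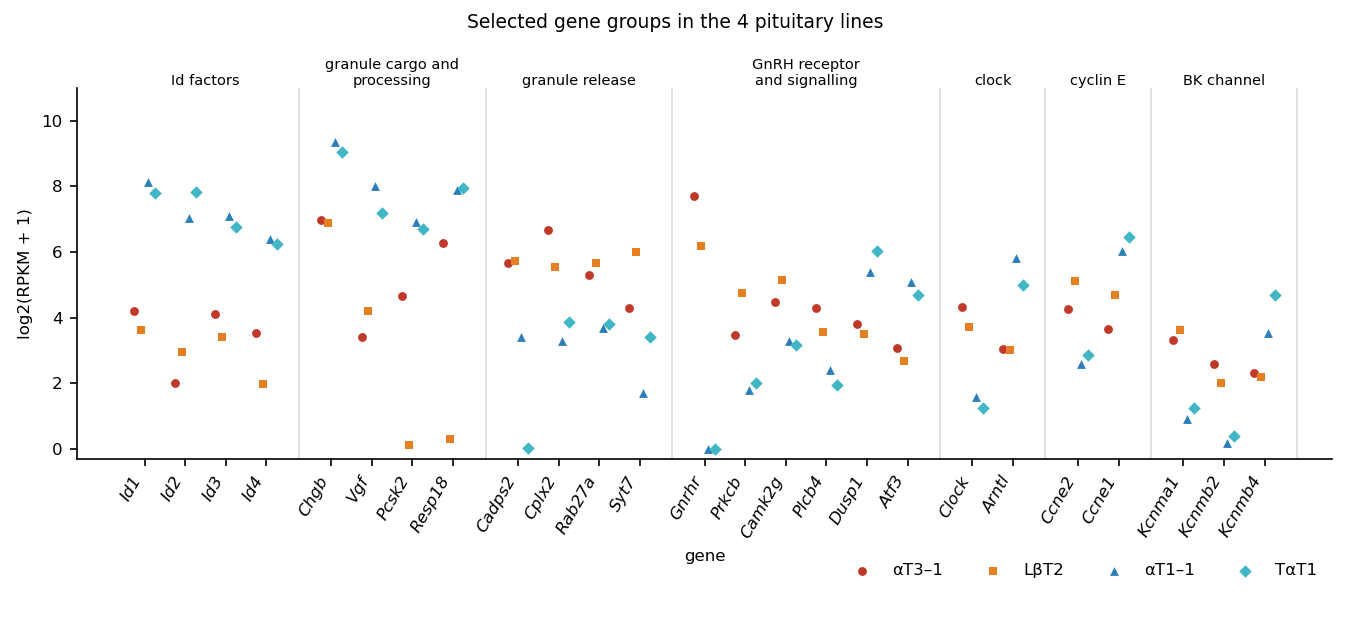
log2(RPKM + 1) of selected members of 7 groups in αT3–1, LβT2, αT1–1 and TαT1, 1 point per line. Members were chosen with their values known. Chga, which overlapped, is not drawn, and 24 of the 31 counted secretory pathway genes were in neither set at 2-fold. Both committed lines lie below both others at the Id genes, the granule cargo genes drawn, Dusp1, Atf3, Arntl, Ccne1 and Kcnmb4. They lie above at the release genes drawn, Gnrhr, Prkcb, Camk2g, Plcb4, Clock, Ccne2, Kcnma1 and Kcnmb2.

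Of 35 counted genes of the signalling pathway behind the GnRH receptor, 3 were over 2-fold higher and 2 over 2-fold lower, beside 3.54% and 2.24% of all counted genes. None was past 4-fold, beside 0.644% and 0.528% of all counted genes, shares at which fewer than 1 gene would fall in a list of this size. The median difference was -0.33 as deposited and 0.10 with scaling to Actb, beside 0.06 and 0.45 over all counted genes. Plcb4, a phospholipase C of the Gq pathway, had 18.6 RPKM in αT3–1 and 10.9 in LβT2, against 4.35 in αT1–1 and 2.87 in TαT1 (2.50-fold, 2.19 to 2.86). Prkcb, a protein kinase C, had 10.1 and 25.8 RPKM against 2.47 and 3.04, and Camk2g, a calmodulin kinase, had 21.3 and 34.7 against 8.78 and 8.05. The lower genes were Dusp1, a phosphatase of MAP kinases, and Atf3, a stress-induced bZIP factor. Dusp1 stood at 13.1 RPKM in αT3–1 and 10.3 in LβT2, against 41.1 in αT1–1 and 64.3 in TαT1 (3.14-fold lower, 2.84 to 3.47), and Atf3 at 7.39 and 5.42 against 32.7 and 24.6. Egr1, the immediate early factor that acts on Lhb, had 1.38 and 3.87 RPKM in αT3–1 and LβT2 against 5.08 and 6.67 in αT1–1 and TαT1 without a treatment, a separation of -0.32.

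Of 43 counted genes of voltage-gated channels, 7 were over 2-fold higher (16.3%) and 2 over 2-fold lower (4.65%), beside 3.54% and 2.24% of all counted genes. The counts were 6 and 3 under quantile normalization and 8 and 0 with scaling to Actb, where Cacna1i (-0.87) and Kcnmb4 (-0.97) were no longer past 2-fold. Cacna1h, a T-type calcium channel, had 69.2 RPKM in αT3–1 and 24.9 in LβT2, against 1.93 in αT1–1 and 0.47 in TαT1 (12.9-fold, 11.5 to 14.5). Its relative Cacna1i was over 2-fold lower, with 0.60 and 0.02 RPKM in αT3–1 and LβT2 against 2.83 and 2.69 in αT1–1 and TαT1, and the other T-type gene, Cacna1g, had 23.9 and 8.61 against 24.9 and 61.0. Kcnma1, the pore subunit of BK potassium channels, had 9.06 and 11.4 RPKM against 0.90 and 1.39 (6.54-fold, 5.44 to 7.90). Among its auxiliary subunits, Kcnmb2 was higher, with 4.98 and 3.07 RPKM in αT3–1 and LβT2 against 0.14 and 0.33 in αT1–1 and TαT1, and Kcnmb4 was lower, with 3.97 and 3.55 against 10.6 and 25.0. Scn3a, a sodium channel, had 14.0 and 3.21 RPKM against 0.26 and 0.34. Gjd2, the connexin of electrical synapses, stood at 23.7 RPKM in αT3–1 and 22.5 in LβT2, against 1.45 in αT1–1 and 1.92 in TαT1 (11.7-fold, 9.57 to 14.5).

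Of 28 counted hypothalamic and monoamine receptors, 3 were over 2-fold higher and 1 lower, beside 3.54% and 2.24% of all counted genes. Besides Gnrhr, the higher receptors were Adcyap1r1 and Npr3. Adcyap1r1, the receptor for the peptide PACAP, had 32.3 RPKM in αT3–1 and 5.38 in LβT2, against 0 in αT1–1 and 0.02 in TαT1. Npr3, the clearance receptor for natriuretic peptides, stood at 1.57 and 2.01 RPKM against 0.28 and 0. Its separation of 1.01 fell under 2-fold with median-of-ratios scaling (0.99) and quantile normalization (0.66). The lower receptor was Calcr. In the insulin-like growth factor list, Igfbp3 was higher, at 3.31 and 78.6 RPKM in αT3–1 and LβT2 against 0 and 0.04 in αT1–1 and TαT1, while Igf2 and Igf2bp2 were lower, the second of them not past 2-fold with scaling to Actb (-0.89). Of 34 counted nuclear receptors, Nr5a1 and Nr0b1 were higher and Rxrg and Nr2f2 lower at 2-fold, a share of 5.88% each way, or 4 higher and 2 lower of 35 with scaling to Actb. Nr2f2, the orphan receptor COUP-TFII, had 2.45 RPKM in αT3–1 and 1.11 in LβT2, against 14.6 in αT1–1 and 11.4 in TαT1 (4.65-fold lower, 4.04 to 5.36).

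Of 43 counted cell cycle genes, 1 was over 2-fold higher (2.33%) and 2 lower (4.65%), beside 3.54% and 2.24% of all counted genes. With scaling to Actb, 3 of 44 were higher (6.82%) and 1 lower (2.27%), near the 6.18% and 1.3% of all genes under that scaling. The cyclins E parted, with Ccne2 at 18.2 RPKM in αT3–1 and 33.8 in LβT2 against 5.03 in αT1–1 and 6.23 in TαT1, and Ccne1 at 11.6 and 24.8 against 64.3 and 86.3 (2.60-fold lower, 2.41 to 2.80). Of 54 counted chromatin genes, 1 was over 2-fold higher and none lower. It was Kdm5b, a demethylase of histone H3 lysine 4, with 16.1 and 20.1 RPKM in αT3–1 and LβT2 against 5.25 and 3.22 in αT1–1 and TαT1 (3.06-fold, 2.81 to 3.35). None of 7 counted binding proteins of the SV40 T antigen and none of 13 counted Hox genes passed 2-fold in either direction, apart from 1 of the binding proteins that was higher with scaling to Actb. At the shares of all counted genes, fewer than 1 gene would fall in a list of this size. Of 15 counted housekeeping genes, 1 (Tfrc, the transferrin receptor) was over 2-fold higher. Actb, the β-actin used as a reference in such lines, had 584 RPKM in αT3–1 and 579 in LβT2, against 723 in αT1–1 and 875 in TαT1.

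At the remaining lists, 60 homeodomain and POU factors were counted. They held 1 gene over 2-fold higher (1.67%) and 5 lower (8.33%), beside 3.54% and 2.24% of all counted genes. With scaling to Actb, 2 of 61 were higher and 2 lower (3.28% each), beside 6.18% and 1.3% under that scaling. The 47 zinc finger factors held 1 and 2, or 1 and 5 of 49 under quantile normalization. The 8 SOX factors held 1 and 2, and the 25 cadherin and junction genes 3 and 0. Of 20 counted neuropeptide and hormone genes, none was higher and 3 were lower, among them Calca, which encodes calcitonin and CGRP (0.42 and 0.04 RPKM in αT3–1 and LβT2 against 5.11 and 30.5 in αT1–1 and TαT1). Of 6 counted genes of fibroblasts and matrix, Vim and Sparc were lower and none was higher, and Sparc was no longer past 2-fold with scaling to Actb (-0.91). Vim, the intermediate filament vimentin, had 2.69 and 2.78 RPKM in αT3–1 and LβT2 against 11.1 and 22.6 in αT1–1 and TαT1. Of 6 counted endothelial and immune genes, Cdh5 was higher, at 1.16 RPKM in αT3–1 and 50.6 in LβT2 and at 0 in both others, a call that was lost under quantile normalization (0.90). Of 6 counted corticotrope and melanotrope genes, Neurod1 was higher (45.5 and 1.74 RPKM in αT3–1 and LβT2 against 0.22 and 0 in αT1–1 and TαT1) and Pcsk2 lower. The folliculostellate list had 1 counted gene, in neither set.

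Some separating genes lay side by side in the genome. Fkbp6 and Trim50 lie 75 bp apart on chromosome 5, and both were higher. Fkbp6 had 7.11 RPKM in αT3–1 and 26.5 in LβT2 and no read in αT1–1 or TαT1, and Trim50 had 8.48 and 54.6 against 0 and 0.04. On chromosome 6, Foxp2 and its next counted gene Mdfic were both higher, with Mdfic at 11.3 and 4.12 RPKM in αT3–1 and LβT2 and no read in both others.

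At the edge of the 4-fold call, the last higher genes inside were Igfbp3, Tmx3 and Sh3bgrl, with separations of 2.05, 2.03 and 2.03, and the first outside were Fam131c, St6galnac3 and Rif1. The last lower genes inside were Ncald, Mn1 and Pcsk2 (-2.02, -2.04 and -2.04), and the first outside were Egfr, Pou1f1 and Ildr2. For 73 of 74 higher genes with recovered reads and all 58 such lower genes, the lower bound of the counting interval of the nearest ratio was 4 or more. These intervals use the levels that made the call, and with the pseudocount a call needs a ratio above 4. The counts are therefore no check of the calls.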

How the data were processed

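RNA of 5 mouse cell lines was measured by RNA-seq. According to the study's methods, TruSeq v2 libraries, a kit that does not mark the strand, were sequenced as 36 bp single-end reads and aligned to the mouse genome with CASAVA. RPKM values were made by the authors before deposit, by scaling the aligned reads of each gene to its length and to library depth. The CASAVA version, genome build, gene models and handling of multiply aligned reads were not given in the sources used here. The methods speak of more than 1 library per line, whereas the table has 1 column per line, and how the libraries were joined is not stated. The chromatin measurements of the study were not analysed here.

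Of 21476 entries, 25 bore dates instead of symbols (0.0991% to 0.242% of all RPKM) and were dropped, and 9 duplicated symbols were taken at the higher mean. Values under 1 RPKM were within 0.05 of whole multiples of a step per column, taken to be a unit in decimal place 5 of mean coverage. Whole reads were sought at gene lengths of 150 to 15000 bp, and 671 genes with a length over 1.05 times their summed exons (GENCODE M21) were left out. Poisson and binomial intervals are exact. The true number of reads can be a multiple of the recovered one, and the intervals are then too wide.

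The pseudocount was 1, genes at 1 RPKM or more in any of the 4 lines were counted, and the calls were set at differences of 2 and 1. With 1 column per line no test was made. The members, the 30 gene lists and the thresholds were chosen with earlier results of these data known. Names of other families that shared a stem were dropped from the forkhead, homeodomain, helix-loop-helix and zinc finger lists after values had been seen. Genes were named by rule: those of the study, the 15 largest separations in each direction among named genes at 10 RPKM or more in the higher pair, up to 4 members of each list past a difference of 1, and the 3 nearest the threshold on either side. Others, such as Clock, Arntl, Myc, Nog, Tgfb2, Smad9, Inhbb, Inha, Syt7, Resp18, Cplx2, Rab27a, Plcb4, Ube3a, Mkrn3, Kcnmb4, Cacna1i, Cacna1g, Peg10, Pon2, Fkbp6, Trim50 and Mdfic, were chosen after their values were seen, and a few genes are not reported here.

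Promoter windows (RefSeq, GRCm38.p6) were found for 63 higher and 45 lower genes, and where a gene had several the first was used. Shared words are 36-base words of a gene's transcripts that also occur in transcripts of other genes. Steps were tested on simulated data. All steps ran in Python 3.11.15 with matplotlib 3.10.9, NumPy 2.4.6, SciPy 1.17.1 and pandas 2.3.3. Alternatives were other pseudocounts, minimums, thresholds and scalings, a call on pair means or on counting intervals, and leaving out each line.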

Additional observations from a re-analysis of the deposited data

How the results depend on the processing

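All 56 named genes past 4-fold kept their direction under median-of-ratios scaling, quantile normalization and scaling to Actb. They were named after a large separation, so this is a weak check. A pseudocount cannot change which level is larger, so pseudocounts of 0.1 and 5 tested only the size. With the pseudocount of 5, 34 of the 56 genes stayed past 4-fold, and with the pseudocount of 0.1 and the 3 scalings 50 to 56 did. The counts of 83 higher and 68 lower genes depended more on the settings. They were 257 and 182 with a pseudocount of 0.1, 27 and 26 with a pseudocount of 5, 456 and 289 at a difference of 1, and 39 and 28 at a difference of 3. On pair means in place of nearest levels, which lets 1 line carry a call, they were 417 and 263, and with the lower bound of the counting interval at 4 or more, without a pseudocount, 175 and 123. Scaling to Actb, which moved the median difference of all counted genes to 0.45 against 0.06 as deposited, gave 133 higher and 56 lower genes, so that 70.4% of the calls were higher, against 55.0% as deposited. Median-of-ratios scaling gave 80 and 69 genes, 80 and 68 of them the same genes as before, and quantile normalization 73 and 82, 73 and 66 of them the same. Leaving out 1 of the 4 lines, which drops a condition, gave 150 to 585 higher and 158 to 347 lower genes, with the largest counts without αT3–1. The counts of 17 genes on and 18 off in both committed lines became 40 and 38 at 5 RPKM for on, 7 and 9 at 20 RPKM, and 11 of the first kind with 0.5 RPKM for off. They ran from 23 to 177 and from 33 to 96 with a line left out. No paired analysis was possible because each line has 1 column and the lines of the 2 pairs share no replicate. Depth limited the lowest levels only, since the floor of 3 reads was 0.12 to 0.13 RPKM for Gnrhr in the 4 lines, whereas the lack of replicates limits every difference.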
